A study of Mus musculus with 12 samples.

Results

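Cochleae of mice that drank green tea extract (GTE) were compared with cochleae of mice that drank black coffee: 4 RNA-seq libraries a group, the 8 of 12 cochlear libraries in the series that are labelled GTE or coffee. The GTE mice had GTE at 0.006% in the drinking water and the coffee mice had black coffee at 0.1%, in both groups between 3 and 12 months of age. The 4 control libraries, from mice on plain water, entered the fit and are given last beside the drinks. All mice were wild-type C57BL/6J aged 12 months, and all 3 groups share that strain, which carries a hearing-loss allele of cadherin 23 and loses high-frequency hearing early in adult life. The labels give no sex, and they do not say whether a library holds 1 animal or several, or that the libraries of a group are separate animals, so the p-values speak of library-to-library spread, and part of that spread may be technical. The 2 drinks differ in concentration as well as in kind, and dose and drink cannot be told apart. A gene was kept where it had an FPKM (fragments scaled to exon length and library size) of at least 1 in at least 4 of the 8 libraries, which held for 15388 of 34538 genes (44.6%). Of these, 387 reached that level in exactly 4 libraries, with a median mean of 1.06 FPKM, and 494 genes just outside reached it in exactly 3, with a median mean of 0.924 FPKM. Only 5 genes passed through the 4 GTE libraries alone, and 2 through the 4 coffee libraries alone.

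The cochlea keeps its sensory hair cells in a potassium-rich fluid, endolymph, whose voltage is made by the stria vascularis. In that tissue marginal cells secrete potassium, pigmented intermediate cells set the voltage, and fibrocytes of the spiral ligament return potassium from the hair cells. Green tea extract is rich in catechins and coffee in caffeine and chlorogenic acids. Both can hold caffeine, a blocker of adenosine receptors and, at high concentration, of phosphodiesterases. Neighbouring structures, chiefly bone with its marrow, muscle, fat and middle ear lining, can come along when a cochlea is dissected, so their marker genes were read beside those of the ear.

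Heat-shock and interferon genes, described further on, have well-known control elements, and the 250 bases before the RefSeq start site (GRCm38.p6) of some of them are printed here so that the letters stand beside the values. The heat shock element was searched as GAANNTTC or TTCNNGAA, each of which reads the same on the opposite strand, and the interferon element as GAAA, any 2 bases and GAAA, with TTTC, any 2 bases and TTTC for the opposite strand. Of the tested genes, 11019 matched the promoter table by symbol or identifier; 1318 of these (12%) held the heat shock letters and 369 (3.35%) the interferon letters, with 76 holding both. Among the heat-shock genes listed there, 9 of 18 (50%) held the heat shock letters and 0 of 18 the interferon letters; among the interferon genes 8 of 17 (47.1%) held the interferon letters and 3 of 17 (17.6%) the heat shock letters. The 3 sequences per list are those of the holders with the smallest p-values, written 5′ to 3′ on the strand of the gene, and capitals mark the matched letters, which overlap in Oas1a. A match is a description of the letters and not a tested site. For the heat shock element they were:
Hsph1, chr5:149636316-149636565, minus strand: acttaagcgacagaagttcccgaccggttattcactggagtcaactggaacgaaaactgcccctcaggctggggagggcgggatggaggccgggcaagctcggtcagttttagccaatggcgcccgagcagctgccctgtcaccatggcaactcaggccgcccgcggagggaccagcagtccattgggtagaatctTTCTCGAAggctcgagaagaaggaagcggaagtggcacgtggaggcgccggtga
Dnaja1, chr4:40722218-40722467, plus strand: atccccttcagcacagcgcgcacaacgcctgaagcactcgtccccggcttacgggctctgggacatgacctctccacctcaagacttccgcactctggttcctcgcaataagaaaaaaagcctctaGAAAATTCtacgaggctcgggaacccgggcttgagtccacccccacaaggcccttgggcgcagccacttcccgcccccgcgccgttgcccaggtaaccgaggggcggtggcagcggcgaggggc
Hspa1b, chr17:34959239-34959488, minus strand: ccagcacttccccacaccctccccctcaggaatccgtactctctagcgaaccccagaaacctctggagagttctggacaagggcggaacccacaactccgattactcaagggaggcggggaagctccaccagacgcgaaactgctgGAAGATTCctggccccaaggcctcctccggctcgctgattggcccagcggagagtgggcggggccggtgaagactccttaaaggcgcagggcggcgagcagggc
For the interferon element they were:
Oas1a, chr5:120907526-120907775, minus strand: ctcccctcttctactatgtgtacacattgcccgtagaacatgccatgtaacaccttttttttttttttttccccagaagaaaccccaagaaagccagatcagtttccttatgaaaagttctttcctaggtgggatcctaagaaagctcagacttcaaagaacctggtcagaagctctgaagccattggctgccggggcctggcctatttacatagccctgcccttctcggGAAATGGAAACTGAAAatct
Oas3, chr5:120777660-120777909, minus strand: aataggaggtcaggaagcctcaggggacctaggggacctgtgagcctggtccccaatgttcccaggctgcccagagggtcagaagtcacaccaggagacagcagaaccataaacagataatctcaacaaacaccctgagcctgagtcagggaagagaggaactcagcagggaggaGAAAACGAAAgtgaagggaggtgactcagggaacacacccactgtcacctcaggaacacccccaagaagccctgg
Stat2, chr10:128270248-128270497, plus strand: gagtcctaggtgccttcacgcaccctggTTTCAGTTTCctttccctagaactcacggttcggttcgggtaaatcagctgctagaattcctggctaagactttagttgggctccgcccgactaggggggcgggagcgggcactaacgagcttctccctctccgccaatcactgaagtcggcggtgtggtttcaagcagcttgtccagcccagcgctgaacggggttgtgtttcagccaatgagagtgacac
The capitals of Hsph1 end 46 bases before 1 of 2 starts listed for it, those of Hspa1b 96 bases and those of Dnaja1 116 bases, at 1 of 3 starts listed for it. In the interferon set the distances were 4 bases in Oas1a, 65 in Oas3 and 212 in Stat2.

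Depth was even across the 8 libraries, with recovered FPKM denominators of 22991209 to 24629529 fragments, so a count of 3 fragments in 2000 exon bases, the floor that counting error sets, corresponded to 0.0609 to 0.0652 FPKM. The tissue label held: Coch, the abundant secreted protein of ligament fibrocytes, was at 1442 to 2146 FPKM in GTE and 1080 to 2156 FPKM in coffee, and Otos, another fibrocyte product, at 245 to 409 FPKM in GTE and 143 to 299.7 FPKM in coffee. Slc26a5, the motor protein of outer hair cells, was far less abundant per length, at 1.57 to 2.53 FPKM in GTE and 0.834 to 2.61 FPKM in coffee. Marrow genes were detected in all 8 libraries and most in 3 of them. The mean log2(FPKM + 1) of 11 genes of immature neutrophil granules was 6.57 in GTE 1, 6.43 in coffee 1 and 6.16 in coffee 4, and 5.16 to 5.58 in the other GTE libraries and 5.88 to 5.95 in the other coffee libraries. Coffee 3 stood apart through skeletal muscle genes, with a list mean of 6.61 against 1.36 to 3.33 in the other 7 libraries, and coffee 1 through interferon genes, with 5.80 against 3.02 to 4.39. Correlations of log2(FPKM + 1) between libraries ran from 0.917 to 0.973 within GTE, from 0.936 to 0.97 within coffee and from 0.921 to 0.972 between GTE and coffee libraries, so the 2 groups did not separate by this measure. No pair of libraries held identical values.

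No gene passed limma's test with Benjamini-Hochberg adjustment over all 15388 genes (0% called, smallest adjusted p = 0.124, threshold 0.05), and voom on recovered fragments called 0 as well. No difference given in this text therefore counts as a change, and the values are given as levels. Before adjustment 1033 genes had a limma p under 0.05, 6.71% of those tested. Of these 701 (4.56% of all) were higher in GTE and 332 (2.16%) lower, and voom on recovered fragments gave 1026. Uniform p-values would give about 769 such genes. The limma fit on the 8 GTE and coffee libraries alone gave 738, 61.1% of them higher in GTE. Over all genes the 2 signs were balanced, with 49.7% above 0 and 50.3% below it and a median difference of -0.001 on the log2(FPKM + 1) scale, on which all differences are given as GTE minus coffee and which understates the change of low genes. All 4 GTE libraries lay above all 4 coffee libraries for 263 genes (1.71%) and below them for 122 (0.793%). For 1 gene, an exact permutation of the 8 libraries has 70 arrangements and cannot give a p below 0.0286. The limma SE and p pool the spread of GTE, coffee and control libraries. For stria ion transport genes the SD of the list mean was 0.36 in GTE, 0.34 in coffee and 0.04 in control. For osteoblast genes it was 0.41, 0.45 and 0.52. Where control libraries are tighter, limma understates the spread of the 2 groups compared. The count at p under 0.05 depended on single libraries: it was 3185 without GTE 1, 1737 without coffee 3 and 562 without GTE 2. The share of these genes that was higher in GTE was 67.9%, but 46.7% without coffee 1, 76.7% after quantile normalization, 75.9% after median scaling and 50.2% with the granule mean as a covariate.

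**Figure D1:**
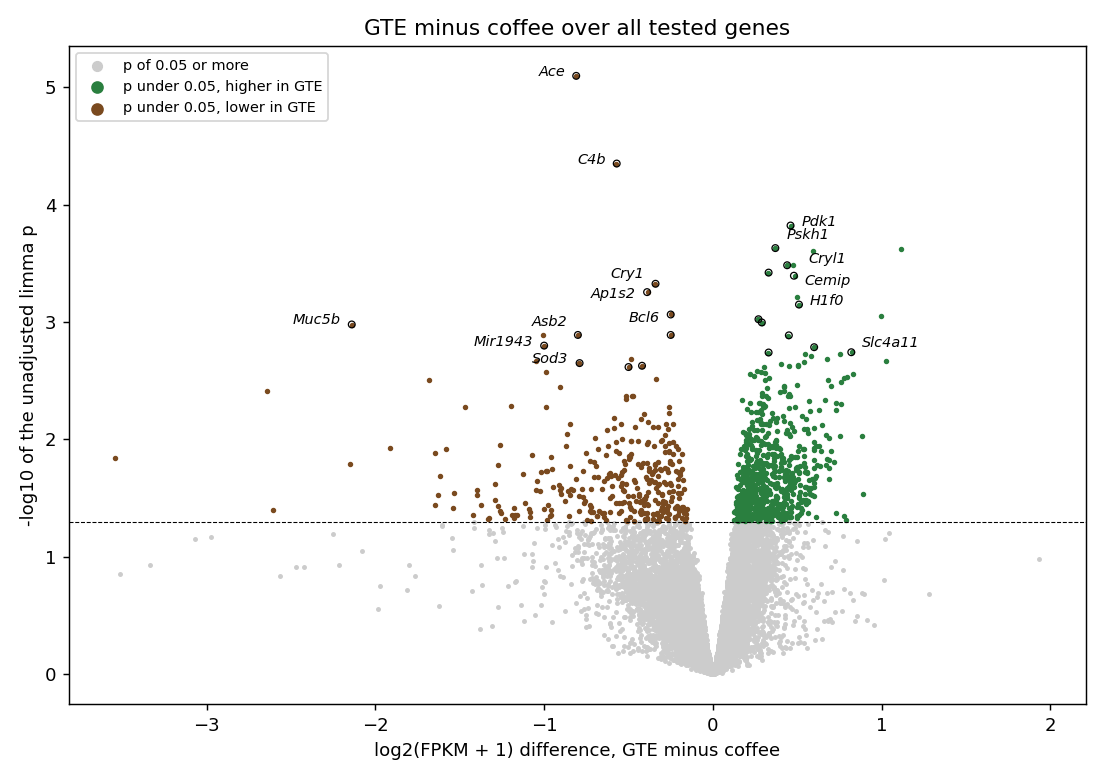
Each point is 1 of 15388 tested genes, with the log2(FPKM + 1) difference, GTE minus coffee, on the horizontal axis and -log10 of the unadjusted limma p on the vertical axis. The dashed line marks an unadjusted p of 0.05, circles mark the genes that the naming rule picked by p in each direction, and Ace and C4b stand highest, both on the side that is lower in GTE.

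Among genes lower in GTE, Ace came first. It encodes angiotensin-converting enzyme, the endothelial surface peptidase that makes angiotensin II, and lies on chromosome 11, 105967945 to 105989964, plus strand (mm10). Ace had 2.93, 2.31, 2.81 and 2.86 FPKM in GTE libraries 1 to 4, against 6.03, 4.72, 4.77 and 6.86 FPKM in coffee libraries 1 to 4. All 4 GTE libraries lay below all 4 coffee libraries and below all 4 control libraries, whose mean was 4.8 ± 0.114 FPKM (SD, n = 4). Its log2 difference was -0.81 ± 0.11 (SE), adjusted p = 0.124, exact permutation p = 0.0286, and it ran from -1.02 to -0.65 over the alternative settings, passing only with sample weights. An antisense gene listed near 0 FPKM shares 5.58% of its exon bases. C4b, which encodes complement component 4, on chromosome 17, 34728380 to 34743882, minus strand, had 21.4, 19.4, 20.2 and 20.5 FPKM in GTE libraries 1 to 4, against 32.8, 34.7, 26.8 and 29.3 FPKM in coffee libraries 1 to 4. The groups did not overlap, the control mean was 24 ± 2.23 FPKM (SD, n = 4) and the log2 difference was -0.57 ± 0.09 (SE), adjusted p = 0.345, exact permutation p = 0.0286. C4b has a near-identical neighbour, C4a, and reads could be split between them.

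The other genes named on the lower side had adjusted limma p-values of 0.662 to 0.722. Cry1, the clock repressor cryptochrome 1, on chromosome 10, 85131700 to 85185064, minus strand, had 6.01, 5, 6.16 and 5.29 FPKM in GTE libraries 1 to 4, against 7.34, 7.01, 7.72 and 7.42 FPKM in coffee libraries 1 to 4, without overlap. Bcl6, a transcriptional repressor of germinal centre B cells and a FOXO target, had 9.05, 9.58, 9.2 and 8.9 FPKM in GTE and 11.2, 11.4, 10.8 and 11 FPKM in coffee, again without overlap. Control means were 7.22 ± 0.315 FPKM for Cry1 and 11.3 ± 0.574 FPKM for Bcl6 (SD, n = 4), close to the coffee libraries. Sod3, the extracellular superoxide dismutase, had 6.38, 8.9, 11.2 and 9.04 FPKM in GTE and 13.5, 19.2, 19.9 and 12.1 FPKM in coffee; every GTE library was lower than every coffee library, and the control mean was 18 ± 3.72 FPKM. Ap1s2, a clathrin adaptor subunit, had 11.1, 12, 11.9 and 11.6 FPKM in GTE and 15.6, 14.7, 15.2 and 16.4 FPKM in coffee. Here the control mean, 10.7 ± 1.32 FPKM, lay nearer the GTE libraries, and so it did for Tmem229b, a membrane protein, with 14 ± 1.05 FPKM in GTE, 19.1 ± 1.87 in coffee and 13.9 ± 2.04 in control. Slc8a1, the sodium-calcium exchanger, had 1.78, 1.14, 1.35 and 1.22 FPKM in GTE and 2.35, 2.29, 1.89 and 2.85 FPKM in coffee. Lmtk2, an endosomal kinase, had 8.42, 7.53, 8.14 and 7.79 FPKM in GTE and 9.57, 9.51, 9.99 and 9.59 FPKM in coffee. Neither gene's groups overlapped. Muc5b, a gel-forming mucin of airway and middle ear lining, had the widest gap of these genes, 2.97, 0.396, 0.0756 and 1.16 FPKM in GTE and 6.99, 14.8, 5.7 and 4.68 FPKM in coffee, with a log2 difference of -2.14 ± 0.49 (SE), adjusted p = 0.722, exact permutation p = 0.0286. Its GTE values were themselves spread over a wide range, and other genes of that lining are described further on. Asb2, a ubiquitin ligase subunit of muscle and blood cells, had 1.15, 0.757, 1.2 and 1.09 FPKM in GTE and 2.08, 1.91, 4.63 and 2.17 FPKM in coffee; the highest value was that of coffee 3, the library rich in muscle genes. Mir1943, read here through its short stem-loop gene and not as mature microRNA, had 2.94, 1.11, 2.38 and 2.33 FPKM in GTE and 6.54, 6.3, 3.93 and 4.54 FPKM in coffee.

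The genes named on the higher side had modest differences, with adjusted limma p-values of 0.622 to 0.722. Pdk1, the kinase that shuts off pyruvate dehydrogenase, on chromosome 2, 71873224 to 71903858, plus strand, had 11.3, 13.8, 12.1 and 14.4 FPKM in GTE libraries 1 to 4, against 8.89, 9.03, 10 and 8.36 FPKM in coffee libraries 1 to 4. The groups did not overlap, the control mean was 10.6 ± 0.485 FPKM (SD, n = 4), and the log2 difference was 0.46 ± 0.08 (SE), adjusted p = 0.622, exact permutation p = 0.0286. Pskh1, a serine kinase, had 12.7, 12, 11.7 and 12.2 FPKM in GTE and 9.92, 8.88, 9.71 and 8.37 FPKM in coffee. Cryl1, a lambda-crystallin-related dehydrogenase, had 11.1, 14.8, 12.7 and 13.4 FPKM in GTE and 8.69, 9.99, 10.1 and 8.47 FPKM in coffee. In both genes the 4 control libraries lay between 10.5 and 12.6 FPKM, above the coffee libraries. H1f0, the linker histone of cells that have left the cell cycle, had 76.9, 91.8, 79.9 and 92.6 FPKM in GTE and 57.6, 60.3, 69.2 and 51.6 FPKM in coffee. Cemip, a protein needed to break down hyaluronan, had 5.05, 6.38, 5.17 and 5.96 FPKM in GTE and 3.29, 4.15, 4 and 3.54 FPKM in coffee. Aldh1a3, which makes retinoic acid, had 9.66, 16.8, 15.1 and 15.6 FPKM in GTE and 9.51, 9.1, 9.03 and 8.06 FPKM in coffee; GTE 1 lay just above the highest coffee library. Enzymes and other proteins of mitochondria and of peptide or RNA turnover were also on this side. Tk2, the mitochondrial thymidine kinase, had 13.4, 15.6, 14.5 and 14.8 FPKM in GTE and 11.5, 12.4, 12.2 and 11.5 FPKM in coffee. Bola1, a mitochondrial iron-sulfur protein, had 15.4, 18.7, 14.9 and 15.3 FPKM in GTE and 11.7, 11.8, 13.8 and 12.9 FPKM in coffee. Xpnpep1, an aminopeptidase, averaged 16.4 ± 0.93 FPKM in GTE, 13.2 ± 0.717 FPKM in coffee and 17 ± 1.03 FPKM in control. Dtd2, which removes D-amino acids from tRNA, averaged 5.16 ± 0.334 FPKM in GTE, 3.92 ± 0.212 FPKM in coffee and 4.27 ± 0.201 FPKM in control. Endou, an endoribonuclease, averaged 3.29 ± 0.59 FPKM in GTE, 2.13 ± 0.206 FPKM in coffee and 2.78 ± 0.287 FPKM in control (SD, n = 4 each). All 3 were free of overlap between GTE and coffee. Slc4a11, the last of the set, overlapped and belongs to the ligament genes.

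**Figure D2:**
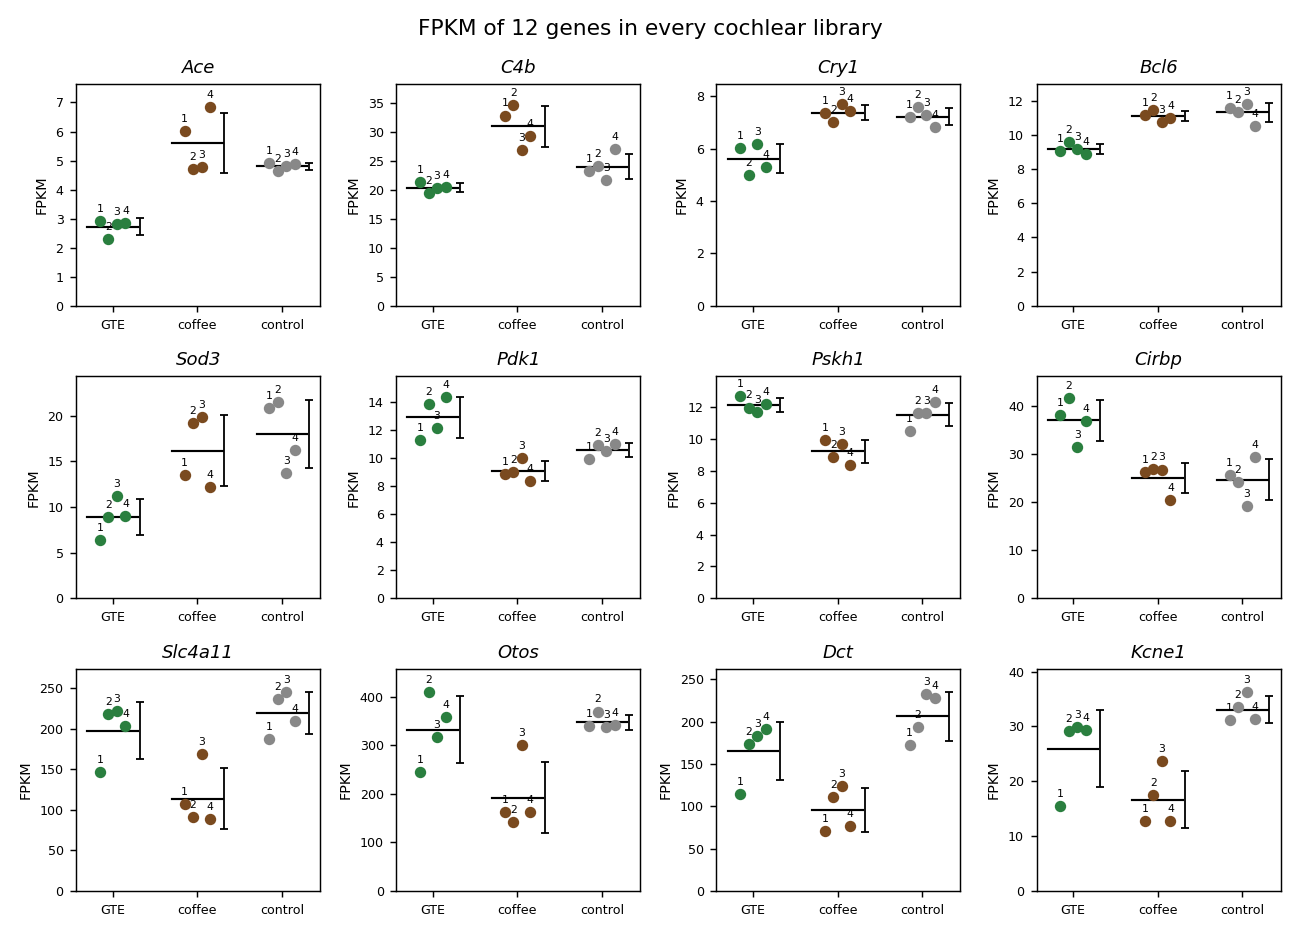
FPKM of 12 genes in GTE, coffee and control libraries, each point 1 library with its replicate number, the line the group mean and the bar beside it 1 SD (n = 4). Ace, C4b, Cry1, Bcl6, Sod3, Pdk1, Pskh1 and Cirbp show no overlap between GTE and coffee, while Slc4a11, Otos and Dct overlap through GTE 1 and coffee 3, and Kcne1 through GTE 1 with coffee 2 and coffee 3.

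Genes of the cochlear lateral wall lay mostly higher in GTE than in coffee, with overlap between the groups. Of the 11 genes for ion transport in the stria, 10 had a positive difference and 1 a negative one, where 49.7% of all genes had a positive one; their median was 0.35 and that of all genes -0.001. By limma 0 of 11 passed adjustment and 3 were higher at p under 0.05, against 4.56% of all genes. Kcne1 and Kcnq1 form the channel through which marginal cells secrete potassium. Kcne1 had 15.4, 29.2, 29.9 and 29.4 FPKM in GTE libraries 1 to 4, against 12.7, 17.4, 23.7 and 12.8 FPKM in coffee libraries 1 to 4 (log2 difference 0.61 ± 0.23 (SE), adjusted p = 0.722, exact permutation p = 0.0857). Kcnq1 had 7.13, 10.9, 11.8 and 12 FPKM in GTE and 5.77, 8.2, 10.2 and 5.41 FPKM in coffee (adjusted p = 0.731). Slc12a2, the cotransporter that loads marginal cells with potassium, had 70.4, 123, 122 and 148 FPKM in GTE and 60.2, 94.5, 97.2 and 64.9 FPKM in coffee. In all 3 genes the low libraries were GTE 1, coffee 1 and coffee 4, the ones richest in marrow genes, and control means were 33, 13.1 and 121 FPKM. The list mean in log2(FPKM + 1) was 4.34, 4.94, 5.07 and 5.12 in GTE 1 to 4, 4.26, 4.81, 4.93 and 4.31 in coffee 1 to 4 and 5.13 to 5.22 in control. The median difference was 0.26 without GTE 1, coffee 1 and coffee 4, 0.51 without GTE 1 alone, 0.23 without coffee 4 alone and 0.13 with the granule mean as a covariate; what part the marrow content has in it was not tested. In bulk tissue, fewer cells of a type and less RNA per cell cannot be told apart.

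Regulators and surface proteins of marginal and outer sulcus cells gave 8 positive and 1 negative differences among 9 genes, median 0.33. At limma p under 0.05, 3 were higher, against 4.56% of all genes. Slc26a4, the anion exchanger pendrin of outer sulcus and spindle cells, had 66.7, 115, 85.3 and 120.2 FPKM in GTE libraries 1 to 4, against 33.6, 63, 81.3 and 38.2 FPKM in coffee libraries 1 to 4 (log2 difference 0.88 ± 0.28 (SE), adjusted p = 0.722, exact permutation p = 0.0571). Lrp2, the endocytic receptor megalin, had 24.7, 37.7, 42.5 and 47.3 FPKM in GTE and 19, 30.3, 35.1 and 20.5 FPKM in coffee. Dclk1, a microtubule-binding kinase, had 17.2 to 33.6 FPKM in GTE and 13.1 to 22.8 FPKM in coffee. Of the 11 pigment cell genes 9 were tested, and all 9 of these had a positive difference, median 0.33. At limma p under 0.05, 4 were higher, against 4.56% of all genes. Tyrp1 and Oca2 were under the FPKM filter. Dct, the melanin enzyme dopachrome tautomerase, had 114, 173, 183 and 191 FPKM in GTE libraries 1 to 4, against 70.5, 112, 124 and 76.9 FPKM in coffee libraries 1 to 4, a log2 difference of 0.79 ± 0.21 (SE), adjusted p = 0.722, exact permutation p = 0.0571; GTE 1 and coffee 3 overlapped, and the control mean was 206 ± 28.7 FPKM (SD, n = 4). Mlana, a melanosome protein, had 20, 34.7, 25.1 and 31.2 FPKM in GTE and 12.1, 17.9, 27.1 and 11.2 FPKM in coffee. Slc45a2, a melanosome transporter, had 11.8, 17.4, 16.8 and 17.4 FPKM in GTE and 7.25, 10.6, 14.8 and 6.94 FPKM in coffee. Tyr, tyrosinase, had 3.18, 5.11, 4.9 and 6.12 FPKM in GTE and 2, 3.75, 4.19 and 1.99 FPKM in coffee. Without GTE 1, coffee 1 and coffee 4 the pigment median was 0.36 and that of the marginal and sulcus list 0.26; with the granule covariate they were 0.20 and 0.19.

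The spiral ligament genes had the widest positive median of the cochlear lists, 0.44, with 12 of 14 genes positive and 7 at limma p under 0.05, against 4.56% of all genes. Gm525, a list member with a predicted-gene symbol, had 285, 497, 392 and 349.8 FPKM in GTE libraries 1 to 4, against 154, 160.3, 299 and 164 FPKM in coffee libraries 1 to 4 (log2 difference 1.00 ± 0.22 (SE), adjusted p = 0.722, exact permutation p = 0.0571). The list's members were chosen with earlier results of these data known. Slc4a11, a membrane transporter of fibrocytes, had 147, 218, 222 and 204 FPKM in GTE and 107, 90.7, 169 and 88.3 FPKM in coffee (log2 difference 0.82 ± 0.20 (SE), adjusted p = 0.722, exact permutation p = 0.0571). Otos, the fibrocyte protein otospiralin, had 245, 409, 316 and 359 FPKM in GTE and 162, 143, 299.7 and 163 FPKM in coffee. Pou3f4, the transcription factor of X-linked deafness, had 30, 44.1, 39.4 and 46.5 FPKM in GTE and 24.5, 24.5, 35.1 and 22.7 FPKM in coffee. In these 4 genes coffee 3 was the highest coffee library and GTE 1 the lowest GTE library. Coch overlapped more, with 1442, 2141, 2035 and 2146 FPKM in GTE and 1441, 1205, 2156 and 1080 FPKM in coffee and adjusted p = 0.731. The list mean was 5.66, 6.20, 6.17 and 6.19 in GTE 1 to 4 and 5.51, 5.54, 5.98 and 5.48 in coffee 1 to 4, so coffee 3 sat above GTE 1 and the other coffee libraries below all 4 GTE libraries. Controls were at 6.06 to 6.31. The median was 0.42 without the 3 marrow-rich libraries, 0.64 without coffee 3 and 0.32 with the granule covariate.

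Hair cell genes split: 8 of 20 tested (26 listed) were positive and 12 negative, with a median of -0.04, near that of all genes. Gfi1, also on the primary granule list, and Pvalb, also on the muscle list, are counted among them. The hair cell genes with limma p under 0.05 were 3 calcium-binding or surface genes, all on the higher side, against 4.56% of all genes. Calb2, calretinin, had 129.8, 249, 219 and 203 FPKM in GTE libraries 1 to 4, against 106, 108, 132 and 117 FPKM in coffee libraries 1 to 4 (log2 difference 0.75 ± 0.19 (SE), adjusted p = 0.722, exact permutation p = 0.0571); Ocm, the outer hair cell calcium buffer oncomodulin, had 27.4, 36, 34.3 and 31.6 FPKM in GTE and 12.3, 15.1, 35.4 and 22.1 FPKM in coffee. Tmprss3, a deafness-gene protease, had 17.6, 25.6, 20.7 and 24.9 FPKM in GTE and 10.9, 15.8, 22.6 and 12 FPKM in coffee. The groups overlapped fully for a structural and a synaptic gene of the same cells. Myo7a, the stereocilia motor, had 5.24, 5.17, 5.5 and 4.42 FPKM in GTE and 5.03, 4.94, 5.2 and 5.66 FPKM in coffee. Otof, otoferlin of the ribbon synapse, had 4.61, 11.3, 12.2 and 7.64 FPKM in GTE and 7.83, 10.6, 11.7 and 8.1 FPKM in coffee. Slc26a5 averaged 2.04 ± 0.429 FPKM in GTE, 1.5 ± 0.779 FPKM in coffee and 3.03 ± 0.195 FPKM in control (SD, n = 4 each), adjusted p = 0.761. Among 20 supporting cell and tectorial membrane genes 15 were positive and 5 negative. At limma p under 0.05, 6 were higher, against 4.56% of all genes. The median of the 20 genes was 0.07, and it ran from -0.01 without GTE 2 to 0.24 without GTE 1. Col11a2, a tectorial and cartilage collagen, had 73.7, 85.8, 87.2 and 77.1 FPKM in GTE and 63.4, 59.7, 73.7 and 63.1 FPKM in coffee and no overlap (adjusted p = 0.722). Ceacam16, a tectorial membrane protein, had 178, 238, 182 and 208 FPKM in GTE and 103, 121, 202 and 119 FPKM in coffee. Epyc, epiphycan, had 93.7, 128, 115 and 138 FPKM in GTE and 54.3, 79.3, 123 and 63.4 FPKM in coffee; an antisense gene at 35.1 FPKM shares 23.2% of the exon bases of Ceacam16, and another shares 40.6% of those of Epyc. Gjb2, the gap junction protein connexin 26, had 208, 392, 356 and 368 FPKM in GTE and 192, 229, 319.5 and 185 FPKM in coffee. Lgr5, a receptor of Deiters cells, had 3.18, 5.46, 4.42 and 6.4 FPKM in GTE and 2.25, 3.24, 3.93 and 2.04 FPKM in coffee. GTE 1 was again the lowest GTE library for Epyc, Gjb2 and Lgr5.

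Skeletal lists were mixed. Cartilage genes gave 8 positive of 11 (median 0.27, or 0.45 without GTE 1), 3 at p under 0.05, against 4.56% of all genes. Cnmd, chondromodulin, was at 93.6 to 135 FPKM in GTE and 56.7 to 107 FPKM in coffee. Col9a1 was at 4.18 to 7.55 FPKM in GTE and 3.43 to 5.55 FPKM in coffee. Col9a3 was at 11.4 to 17.1 FPKM in GTE and 10.7 to 14.8 FPKM in coffee. The last 2 are chains of a cartilage and tectorial collagen. Osteoblast and osteocyte genes gave 12 of 15 positive (median 0.17); Spp1, osteopontin, which marginal cells of the stria also make, had 1444, 2368, 1846 and 2269 FPKM in GTE and 1415, 1484, 1879 and 1033 FPKM in coffee. Osteoclast genes were all 9 negative (median -0.16), 0 of them at p under 0.05. Leaving out 1 library, the osteoblast median ran from 0.04 without GTE 1 to 0.35 without GTE 4 and the osteoclast median from -0.38 without GTE 1 to -0.04 without coffee 1. Of 25 genes for collagens, their processing and other matrix proteins 15 were positive, median 0.04. Eln, elastin, was the only one without overlap, where 0.793% of all genes lay wholly below coffee. It had 1.93, 2.17, 2.14 and 1.94 FPKM in GTE and 2.32, 2.64, 3.58 and 3.56 FPKM in coffee (adjusted p = 0.761). P4ha1, a prolyl hydroxylase of collagen, had 12, 13.2, 19.2 and 13.1 FPKM in GTE and 17.9, 22.8, 20.6 and 17.5 FPKM in coffee (adjusted p = 0.722), while Serpinh1, the collagen chaperone, averaged 89.2 ± 10.7 FPKM in GTE, 93.5 ± 4.88 FPKM in coffee and 160.1 ± 10.7 FPKM in control (SD, n = 4 each), with GTE and coffee side by side and control higher.

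**Figure D3:**
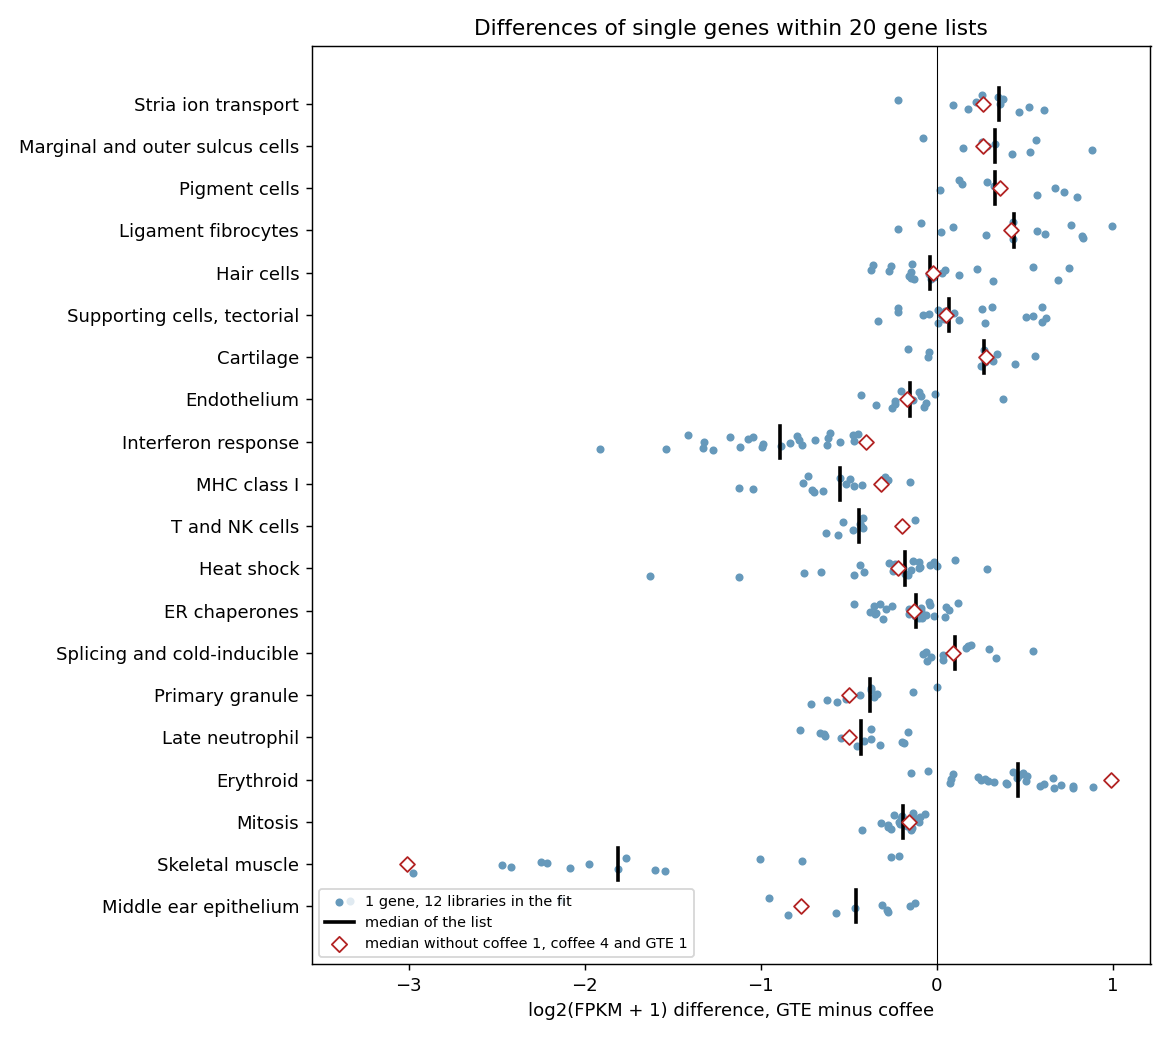
Log2(FPKM + 1) differences, GTE minus coffee, of single genes (points) in 20 lists, with the list median (bar) and the median without coffee 1, coffee 4 and GTE 1 (diamond). Medians of the lateral wall lists lie to the right of 0, those of the interferon, MHC class I, chaperone and muscle lists to the left. Single genes of the stria, marginal, ligament and chaperone lists lie on the other side. The interferon median is -0.89 with all libraries and -0.40 without those 3, and the erythroid median 0.46 and 0.99.

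Interferon-response genes were lower in GTE than in coffee throughout the list, led by coffee 1. All 25 of 25 tested genes had a negative difference, where 50.3% of all genes did. Differences ran from -1.91 to -0.45, with a median of -0.89. At limma p under 0.05, 6 were lower, against 2.16% of all genes. All 4 GTE libraries lay below all 4 coffee libraries for 0 of 25, against 0.793% of all genes. Oas2, which makes the oligoadenylate signal that sets off RNA decay, had 6.82, 4.32, 3.31 and 2.01 FPKM in GTE libraries 1 to 4, against 57.4, 21.8, 3.16 and 18.5 FPKM in coffee libraries 1 to 4 (log2 difference -1.91 ± 0.64 (SE), adjusted p = 0.722, exact permutation p = 0.114). Oas3 had 6.58, 2.92, 2.65 and 0.89 FPKM in GTE and 41.2, 9.02, 1.93 and 10.8 FPKM in coffee. Oas1a, one of several close copies, had 12.3, 15.3, 8.12 and 7.24 FPKM in GTE and 73.7, 25.9, 10.6 and 22.9 FPKM in coffee. The interferon letters in the promoters of Oas1a and Oas3 are among the sequences printed above, with those of Stat2, a transcription factor of the interferon signal, which averaged 11.1 ± 2.55 FPKM in GTE and 21.1 ± 14 FPKM in coffee (SD, n = 4 each). Coffee 1 was highest for all 3, coffee 2 and 4 followed, and coffee 3 lay among the GTE libraries. Ifi27l2a, a small mitochondrial interferon-induced protein, had 159.9, 248, 128 and 211 FPKM in GTE and 632, 330.4, 244 and 326 FPKM in coffee, log2 difference -0.99 ± 0.29 (SE), adjusted p = 0.722, exact permutation p = 0.0571. The list mean was 3.33, 4.01, 3.14 and 3.02 in GTE 1 to 4, 5.80, 4.39, 3.25 and 3.85 in coffee 1 to 4 and 3.01 to 3.64 in control. Without coffee 1 the median was -0.38, and without GTE 1, coffee 1 and coffee 4 it was -0.40.

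MHC class I genes, which present cell contents to T cells, followed the same libraries: 15 of 15 were negative, 7 with limma p under 0.05 against 2.16% of all genes, median -0.55. All 4 GTE libraries lay below all 4 coffee libraries for 0 of 15, against 0.793% of all genes. The SD of the list mean was 0.28 in GTE, 0.59 in coffee and 0.09 in control, so limma understates the spread of the groups compared here. H2-K1 had 189, 181, 155 and 134 FPKM in GTE libraries 1 to 4, against 416, 254, 165 and 283 FPKM in coffee libraries 1 to 4 (adjusted p = 0.722). H2-Q4, H2-Q6 and H2-Q7 are close copies whose reads may be shared. H2-Q4 was at 12.9 to 16.6 FPKM in GTE and 13.3 to 43.8 FPKM in coffee. H2-Q6 was at 7.96 to 17 FPKM in GTE and 9.26 to 47.3 FPKM in coffee. H2-Q7 was at 3.33 to 8.47 FPKM in GTE and 4.21 to 23.4 FPKM in coffee. Without coffee 1 the class I median was -0.34, and without the 3 marrow-rich libraries -0.32. T and NK cell genes were scarce. Of 16 listed 9 passed the filter, all 9 with a negative difference, 3 at p under 0.05, against 2.16% of all genes. The T and NK median was -0.44, with -0.29 without GTE 4, -0.68 without coffee 3 and -0.20 without the 3 marrow-rich libraries. Trbc1, a T cell receptor constant chain, had 2.4, 1.57, 1.1 and 1.25 FPKM in GTE and 5.1, 2.4, 2.46 and 2.33 FPKM in coffee. Cd3d, a T cell receptor subunit, had 1.04, 0.537, 0.527 and 0.258 FPKM in GTE and 2.27, 1.22, 0.61 and 1.46 FPKM in coffee. Lck, its kinase, had 1.58, 1.27, 1.16 and 0.886 FPKM in GTE and 3.01, 1.83, 1.06 and 2.36 FPKM in coffee. Coffee 1 was highest for each of them. MHC class II genes had a median of -0.12 over 8 genes, with Ctss, a protease of antigen-presenting cells, at 155, 149, 115 and 100.5 FPKM in GTE and 249.6, 137, 139 and 225 FPKM in coffee. Inflammation genes had one of -0.14 over 15, with the T cell chemokine Cxcl9 at 0.939, 1.23, 1.31 and 0.536 FPKM in GTE and 11, 2.81, 0.598 and 3.23 FPKM in coffee. Macrophage genes gave 12 negative of 14 (median -0.15), the complement genes C1qa and C1qb among them: C1qa had 87.6, 97.4, 82.9 and 82.5 FPKM in GTE and 123, 98.8, 94.3 and 119.7 FPKM in coffee, and C1qb was at 74.4 to 92.3 FPKM in GTE and 85.3 to 113 FPKM in coffee. In the complement list 9 of 10 were negative, median -0.13. C4b was the only one whose groups did not overlap, where 0.793% of all genes lay wholly below coffee. Leaving out 1 library, the medians ran from -0.28 without coffee 3 to 0.02 without coffee 4 for MHC class II, from -0.33 without coffee 3 to -0.05 without GTE 4 for inflammation, from -0.26 without coffee 2 to -0.07 without coffee 4 for macrophages and from -0.24 without coffee 2 to -0.07 without coffee 1 for complement.

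Chaperone genes were mostly lower in GTE. Of 23 heat-shock genes, among them the mitochondrial chaperones Hspd1, Hspe1 and Hspa9, 20 were negative and 3 positive, 8 of the negative ones at limma p under 0.05 (2.16% of all genes), with a median of -0.18. Hspa8, the constitutive Hsp70, had 303, 319, 425 and 321 FPKM in GTE libraries 1 to 4, against 409, 482, 518 and 479.7 FPKM in coffee libraries 1 to 4 (log2 difference -0.47 ± 0.13 (SE), adjusted p = 0.722, exact permutation p = 0.0571); only GTE 3 reached into the coffee range. Hsph1, its exchange factor, had 12.9, 17.1, 25.9 and 20.8 FPKM in GTE and 22.4, 45.5, 30.8 and 33.5 FPKM in coffee. Dnaja1, a J-domain partner with 7.05% of its exon bases shared with Smu1, had 26.5, 29.9, 37.6 and 31.1 FPKM in GTE and 35.3, 49.8, 39.8 and 43.2 FPKM in coffee. Ahsa1, which drives the Hsp90 cycle, had 17.4, 16.1, 17.5 and 16 FPKM in GTE and 18.9, 21.3, 20.6 and 19 FPKM in coffee without overlap. The inducible Hsp70 copies were lower and more variable: Hspa1b had 2.63, 7.08, 13.2 and 5.77 FPKM in GTE and 7.93, 59.1, 16.5 and 26.7 FPKM in coffee (adjusted p = 0.722). Hspa1a had 1.1, 2.3, 3.55 and 2.39 FPKM in GTE and 2.44, 15.3, 4.05 and 7.55 FPKM in coffee (adjusted p = 0.731), coffee 2 highest in both, and the 2 copies may share reads. The list mean was 5.16, 5.43, 5.65 and 5.47 in GTE 1 to 4, 5.44, 6.07, 5.73 and 5.71 in coffee 1 to 4 and 5.70 to 6.27 in control, with coffee 1 level with GTE 2 and GTE 4. Of 25 chaperones and quality-control genes of the endoplasmic reticulum 21 were negative, and 6 had all 4 GTE libraries below all 4 coffee libraries, where 0.793% of all genes did. Hspa5, the lumenal Hsp70 BiP, had 128, 131, 137 and 123 FPKM in GTE and 166, 139.8, 192 and 150.2 FPKM in coffee. Manf, a secreted stress factor, had 14.6, 15.8, 14.3 and 13.5 FPKM in GTE and 18.4, 18, 22.2 and 17.2 FPKM in coffee. Creld2, a lumenal stress protein, had 29.8, 29.6, 32.8 and 28.5 FPKM in GTE and 34.6, 39, 46.2 and 35.3 FPKM in coffee. Hyou1, another lumenal chaperone, had 19.1, 16.6, 18.1 and 14.9 FPKM in GTE and 22.4, 19.5, 23.2 and 19.4 FPKM in coffee. Syvn1, the ubiquitin ligase that clears misfolded proteins, had 14, 11.8, 13.9 and 10.5 FPKM in GTE and 16.6, 16.1, 14.3 and 16.3 FPKM in coffee. Xbp1, the transcription factor of the unfolded protein response, had 63.3, 57.8, 61.9 and 53.4 FPKM in GTE and 72.7, 67, 75.3 and 67.5 FPKM in coffee. These 6 are the ones without overlap, with adjusted limma p-values of 0.722 to 0.731. The list mean was 5.25 to 5.39 in GTE, 5.43 to 5.54 in coffee and 5.42 to 5.74 in control, and the median of -0.12 was -0.13 without the 3 marrow-rich libraries, where the heat-shock median was -0.22. Without coffee 2 alone the heat-shock median was -0.11. Xbp1 is also high in plasma cells, whose genes are given with the blood lineages. Cirbp, the cold-inducible RNA-binding protein, on chromosome 10, 80165985 to 80172786, plus strand, lay on the other side, at 38.2, 41.8, 31.5 and 36.9 FPKM in GTE libraries 1 to 4, against 26.3, 26.9, 26.9 and 20.4 FPKM in coffee libraries 1 to 4 (log2 difference 0.55 ± 0.14 (SE), adjusted p = 0.722, exact permutation p = 0.0286; control mean 24.7 ± 4.25 FPKM, SD, n = 4). Srsf5, a splicing factor, had 135, 144, 116 and 138 FPKM in GTE and 103, 105, 108 and 104 FPKM in coffee (adjusted p = 0.722). Both were free of overlap, 2 of the 12 genes for splicing and cold response, where 1.71% of all genes lay wholly above coffee. Of these 12 genes 8 were positive (median 0.10). At limma p under 0.05, 2 were higher, against 4.56% of all genes.

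Clock genes had differences of both signs. Beside Cry1, Nfil3, a repressor that opposes the D-box activators, was on the lower side, with 12.1, 6.57, 4.87 and 5.79 FPKM in GTE and 11, 10.4, 7.99 and 13.7 FPKM in coffee. Nr1d1, the repressor REV-ERB alpha, was on the higher side, with 20.1, 33.2, 33.8 and 27.6 FPKM in GTE and 20.4, 25.8, 21.4 and 11.1 FPKM in coffee. Dbp, a D-box activator, had 11.5, 19.2, 29.3 and 16.6 FPKM in GTE and 17.7, 18.5, 17 and 4.81 FPKM in coffee (adjusted p = 0.804), coffee 4 lowest. Per1, a clock repressor, had 13.8, 11.1, 14.1 and 11 FPKM in GTE and 13.2, 24.5, 12.3 and 10.9 FPKM in coffee (adjusted p = 0.841). Other genes share 18% of the exon bases of Dbp and 8.55% of those of Nr1d1. Of 19 clock genes 13 were positive, median 0.05, and the hour of tissue collection is not given in the labels. Glucocorticoid-induced genes gave 0 of 16 at p under 0.05 and a median of -0.08. Fkbp5 averaged 9.93 ± 1.6 FPKM in GTE, 13.6 ± 4 FPKM in coffee and 19 ± 5.1 FPKM in control, and Tsc22d3 29.5 ± 4.63 FPKM in GTE, 38.1 ± 8.02 FPKM in coffee and 51.9 ± 15.7 FPKM in control (SD, n = 4 each), both classical targets of the hormone receptor, with adjusted limma p-values of 0.757 and 0.772. Immediate early genes had a median of -0.14 over 15 genes, which ran from -0.45 without GTE 1 to -0.07 without coffee 4, among them Arc, a gene of active neurons, with 0.421, 0.731, 1.2 and 0.96 FPKM in GTE and 0.809, 2.56, 2.55 and 3.17 FPKM in coffee. In the energy-sensing AMPK and FOXO list 8 of 18 were positive and the median was -0.02. Where 2.16% of all genes were lower at p under 0.05, 3 genes of this list were. These were Bcl6, Prkab2, an AMPK scaffold subunit with 5.03, 4.75, 5.44 and 5.05 FPKM in GTE and 6.24, 6.4, 5.52 and 6.92 FPKM in coffee, and the FOXO target Depp1 with 1.29, 2, 2.59 and 1.94 FPKM in GTE and 2.24, 4.4, 4.19 and 3.54 FPKM in coffee.

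Endothelial genes were lower in GTE by small amounts: 13 of 14 were negative, 4 at limma p under 0.05. The median was -0.15, and -0.17 without the 3 marrow-rich libraries. Of all genes 50.3% were negative and 2.16% lower at p under 0.05. All 4 GTE libraries lay below all 4 coffee libraries for 0.793% of all genes. Kdr, the main receptor for vascular endothelial growth factor, had 4.18, 2.82, 3.77 and 3.21 FPKM in GTE and 5.24, 4.32, 4.4 and 4.79 FPKM in coffee. Robo4, a guidance receptor of vessels, had 2.66, 2.31, 2.7 and 2.42 FPKM in GTE and 3.35, 2.99, 2.85 and 3.07 FPKM in coffee, and neither gene's groups overlapped. Pecam1, an adhesion protein of all vessels, had 12.1, 9.07, 10.7 and 9.93 FPKM in GTE and 11.7, 11.8, 12.9 and 14 FPKM in coffee. Emcn, a sialomucin of capillaries and veins, was the 1 positive gene, with 9.81, 9.66, 11.9 and 10.8 FPKM in GTE and 7.02, 6.91, 11.4 and 6.84 FPKM in coffee. Ace, which vessels also make, has been given above. Spiral ganglion and other neuron genes gave 18 negative of 22 (median -0.16, from -0.27 without coffee 3 to 0.05 without GTE 1) and varied widely within both groups. Tubb3, a neuronal tubulin, had 77.8, 74.7, 132 and 140.4 FPKM in GTE and 137, 193, 62.6 and 119 FPKM in coffee. Gata3, a transcription factor of auditory neurons and of other inner ear cells, had 9.61, 16.5, 13.5 and 13.9 FPKM in GTE and 6.68, 9.85, 13.6 and 7.29 FPKM in coffee (adjusted p = 0.731). Pain neuron genes, from ganglia outside the cochlea, had list means of 1.09 to 3.12 in GTE and 1.00 to 3.15 in coffee. Medians were -0.14 over 14 myelin and glia genes and -0.14 over 6 neurotrophin genes, all 6 of these negative, with 0 and 0 lower at p under 0.05. They ran from -0.23 without GTE 3 to 0.06 without GTE 1 and from -0.24 without GTE 4 to 0.03 without coffee 2.

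The blood lineages of the marrow had differences of both signs. Neutrophil genes were lower in GTE, with 10 of 11 primary granule genes (median -0.38) and all 14 of 14 late neutrophil genes (median -0.43) negative, 0 and 0 of them at p under 0.05. The primary granule median was -0.68 without GTE 1 and -0.24 without GTE 4, and the late neutrophil one -0.78 without GTE 1, -0.28 without GTE 3, -0.24 without GTE 4 and -0.28 without coffee 1. Mpo, myeloperoxidase, had 265, 100.4, 95.1 and 54.1 FPKM in GTE and 260, 162, 118 and 204 FPKM in coffee. Elane, neutrophil elastase, had 872, 345, 317 and 189.6 FPKM in GTE and 722, 440.3, 410.1 and 672 FPKM in coffee. S100a8, a calprotectin subunit, had 5194, 3124, 2172 and 2297 FPKM in GTE and 4888, 3331, 4758 and 3651 FPKM in coffee. GTE 1 was the highest of the 8 libraries in each, and the other 3 GTE libraries were lower than coffee 1. Erythroid genes had mostly positive differences, with 26 of 28 positive and a median of 0.46, where 49.7% of all genes were positive. At limma p under 0.05, 4 were higher, against 4.56% of all genes. Hbb-bs, adult beta globin, had 4696, 4927, 2617 and 2394 FPKM in GTE libraries 1 to 4, against 2891, 1496, 1058 and 2695 FPKM in coffee libraries 1 to 4 (log2 difference 0.89 ± 0.36 (SE), adjusted p = 0.722, exact permutation p = 0.171). Hba-a2, alpha globin, had 297, 321, 143 and 155 FPKM in GTE and 167, 112, 71.9 and 181 FPKM in coffee; both have near-identical copies. Car2, a carbonic anhydrase, also made in the cochlea, had 269, 196, 218 and 197 FPKM in GTE and 163, 126, 139.5 and 221 FPKM in coffee. Bpgm, which makes the red cell phosphate that loosens oxygen, had 35, 31.9, 23.5 and 22.1 FPKM in GTE and 22.2, 17.3, 15.6 and 23.5 FPKM in coffee. Alas2, the first enzyme of red cell haem synthesis, had 122, 75, 54.7 and 38.5 FPKM in GTE and 73.5, 33.3, 20.8 and 71.4 FPKM in coffee. The erythroid median was unsteady: -0.04 without coffee 3, 0.00 without GTE 1 and 0.99 without the 3 marrow-rich libraries. B cell precursor genes had a median of 0.14 (11 of 13 positive) and mature B and plasma cell genes one of -0.13 (10 of 12 negative); the first was 0.00 without GTE 1 and 0.30 without GTE 2, the second -0.30 without GTE 1, 0.01 without GTE 4 and 0.02 without coffee 4. Ighg2b, an antibody constant region of plasma cells, had 30.9, 12.2, 41.3 and 19.4 FPKM in GTE and 101, 28.2, 55.5 and 69.7 FPKM in coffee. Mitosis genes were negative for all 20 of 20 (median -0.19) and DNA replication genes for 16 of 19 (median -0.08), 0 and 0 at p under 0.05. The size rested on single libraries: leaving out 1 library, the mitosis median ran from -0.55 without GTE 1 to 0.01 without GTE 4, and was -0.03 without coffee 1, and the replication median ran from -0.46 without GTE 1 to 0.10 without GTE 4. Their levels followed GTE 1, coffee 1 and coffee 4: Top2a, the mitotic topoisomerase, had 45.5, 16.7, 16.8 and 11.8 FPKM in GTE and 34.4, 15.7, 20.1 and 31.5 FPKM in coffee. Plk1, a mitotic kinase, had 24.7, 7.66, 7.79 and 4.29 FPKM in GTE and 19.8, 9.05, 8.78 and 15.6 FPKM in coffee.

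**Figure D4:**
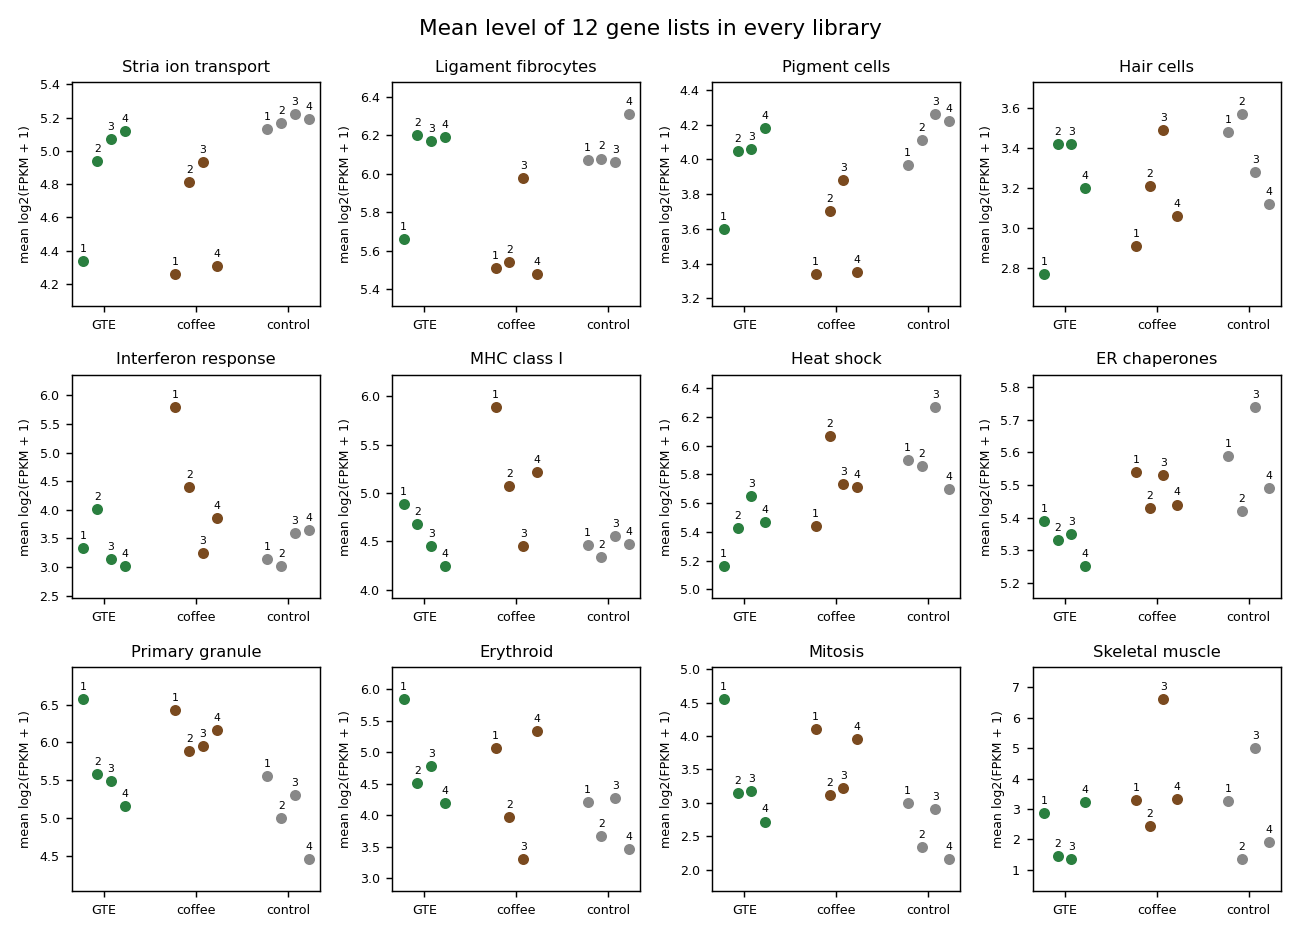
Mean log2(FPKM + 1) of the tested genes of 12 lists in GTE, coffee and control libraries, 1 point a library with its replicate number; vertical axes do not start at 0. GTE 1, coffee 1 and coffee 4 are low for stria genes and high for granule and mitosis genes, coffee 1 stands at 5.80 for interferon genes and coffee 3 at 6.61 for muscle genes.

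Tissue next to the cochlea varied widely between libraries. All 15 of 15 skeletal muscle genes were lower in GTE, with a median of -1.81 that was -0.82 without coffee 3; Acta1, skeletal actin, had 9.52, 0.264, 0.481 and 19 FPKM in GTE and 19.6, 5.53, 284 and 38.3 FPKM in coffee. Atp2a1, the calcium pump of fast muscle, had 3.19, 0.409, 0.55 and 3 FPKM in GTE and 7.73, 2.08, 112 and 5.15 FPKM in coffee. Myh1, a fast myosin, had 1.57, 0.0575, 0.0274 and 2.13 FPKM in GTE and 2.57, 0.606, 25.4 and 3.92 FPKM in coffee. Mybpc1, a myosin-binding protein of slow muscle, was the list's gene with the smallest p, with 7.18, 7.5, 6.82 and 6.46 FPKM in GTE and 12.2, 12.3, 24.4 and 6.67 FPKM in coffee (adjusted p = 0.722). Coffee 3 was highest for it as for Acta1, but within GTE it stayed level where Acta1 ran from 0.264 to 19 FPKM. Middle ear lining and cilia genes were negative for all 11 of 11 (median -0.46, from -0.65 without GTE 4 to -0.27 without GTE 3). At p under 0.05, 2 were lower, Muc5b among them, against 2.16% of all genes. Foxj1, the master factor of motile cilia, had 4.25, 7.85, 6.32 and 10.7 FPKM in GTE and 9.86, 19, 16.9 and 9.69 FPKM in coffee. Bpifb1, a secreted defence protein of airways, had 269, 0.135, 0.0722 and 468 FPKM in GTE and 66.3, 577, 163 and 249 FPKM in coffee. Fat genes had a median of -0.39 over 11 genes, which ran from -0.90 without coffee 1 to -0.02 without GTE 2, with brown fat Ucp1 at 2.49, 0.0745, 106 and 123 FPKM in GTE and 2.02, 74.5, 79.8 and 124 FPKM in coffee. The pituitary gene Gh, growth hormone, was at 72.6, 7.16, 72.5 and 23.2 FPKM in GTE and 95.6, 1.99, 265 and 522 FPKM in coffee, and 4 of 8 pituitary genes passed the filter, all 4 lower in GTE. For fat and pituitary 0 and 0 genes had p under 0.05. These tissues are outside the cochlea, and what they contribute to genes shared with it, Asb2 and Muc5b included, was not tested.

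Genes tied to known actions of the drinks gave few differences. Of 12 adenosine receptor and metabolism genes 9 were negative, median -0.07, with 0 at p under 0.05. Adora1 averaged 2.15 ± 0.795 FPKM in GTE, 3.19 ± 1.09 FPKM in coffee and 2.45 ± 0.786 FPKM in control and Adora2a 1.37 ± 0.135 FPKM in GTE, 1.88 ± 0.618 FPKM in coffee and 1.22 ± 0.786 FPKM in control (SD, n = 4 each), the receptors that caffeine blocks, with adjusted limma p-values of 0.762 and 0.801; Mybph shares 20.1% of the exon bases of Adora1. Among 16 phosphodiesterases the median was -0.09 and 0 were lower at p under 0.05. Pde8b alone had no overlap, where 0.793% of all genes lay wholly below coffee. It had 1.07, 0.808, 1.24 and 1.32 FPKM in GTE and 1.41, 1.59, 1.32 and 1.33 FPKM in coffee (adjusted p = 0.731). GTE 4 and coffee 3 thus differed only past the digits given. The aryl hydrocarbon receptor senses planar compounds, plant ones included. Its genes were positive for 6 of 7 tested (11 listed), median 0.15, 2 at p under 0.05, against 4.56% of all genes. Nqo1, a quinone reductase, had 11.7, 16.6, 13.2 and 15.2 FPKM in GTE libraries 1 to 4, against 10.1, 11.5, 11.4 and 9.67 FPKM in coffee libraries 1 to 4, without overlap (log2 difference 0.37 ± 0.12 (SE), adjusted p = 0.722, exact permutation p = 0.0286). Tiparp, a feedback repressor of the receptor, had 12.3, 15.2, 12.9 and 16.6 FPKM in GTE and 10.8, 12.1, 12.7 and 10.8 FPKM in coffee (adjusted p = 0.731). Cyp1b1, its target, had 22.9 to 31.4 FPKM in GTE and 21.3 to 28.4 FPKM in coffee (adjusted p = 0.792); Cyp1a1 was under the filter. Targets of NRF2, the regulator of the oxidant response, pointed both ways. Nqo1, also on this list, and Gsta4, which conjugates lipid aldehydes, were on the higher side. Gsta4 had 88, 163, 144 and 151 FPKM in GTE and 58.7, 92.3, 122 and 70.7 FPKM in coffee. Other glutathione transferases were on the lower side. Gstm1 had 135, 113, 118 and 114 FPKM in GTE and 137, 137, 154 and 145 FPKM in coffee, without overlap, and Gsta3 was at 0.76 to 1.17 FPKM in GTE and 1.1 to 2.54 FPKM in coffee. The NRF2 median was -0.08 (15 of 19 negative). In the antioxidant enzyme list it was 0.08, with Sod3 the only one of 19 at p under 0.05, and in the catechol methylation list 0.05 over 7, with 0 at p under 0.05.

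Several secreted growth factor genes lay on the higher side in GTE, while their lists had medians near 0. In the BMP and TGF-beta list 10 of 17 were positive and 7 negative, where 49.7% of all genes were positive. Differences ran from -0.34 to 0.47, with a median of 0.07. Where 4.56% of all genes were higher at limma p under 0.05, 3 genes of this list were. These 3 are secreted ligands. Bmp4 had 9.09, 13.7, 14.3 and 13.7 FPKM in GTE and 8.08, 9.65, 11.2 and 9.06 FPKM in coffee. Bmp5 had 3.68, 4.67, 5.59 and 5.7 FPKM in GTE and 3.23, 3.85, 3.64 and 3.45 FPKM in coffee. Tgfb2 had 8.1, 12.7, 11 and 14 FPKM in GTE and 6.87, 8.94, 10.2 and 5.95 FPKM in coffee. Bmp6, the ligand that tunes iron uptake in the liver, averaged 27.9 ± 5.6 FPKM in GTE, 21.7 ± 5.29 FPKM in coffee and 30.2 ± 4.91 FPKM in control (SD, n = 4 each; adjusted p = 0.759). An antisense gene listed near 0 FPKM shares 46.7% of the exon bases of Bmp5. Of 10 insulin-like growth factor genes 7 were positive (median 0.06). Igfbp5, a binding protein, had 243, 325, 312 and 346 FPKM in GTE libraries 1 to 4, against 233, 216, 241 and 228 FPKM in coffee libraries 1 to 4, without overlap (log2 difference 0.40 ± 0.10 (SE), adjusted p = 0.722, exact permutation p = 0.0286). Igf1, the growth factor, had 8.19, 12.5, 13.5 and 14.7 FPKM in GTE and 6.16, 8.31, 11.3 and 8.38 FPKM in coffee (adjusted p = 0.722). Further lists lay close to 0. Medians were 0.01 over 29 ribosomal proteins, 0.09 over 25 nuclear genes of the respiratory chain and 0.10 over 12 mitochondrially encoded genes, among which mt-Co3 ranged over 49.1 to 140 FPKM in GTE and 39.7 to 91.8 FPKM in coffee. Iron handling had 0.08 over 13 genes, fatty acid oxidation 0.10 over 15, cholesterol synthesis -0.11 over 16 and apoptosis -0.02 over 17. Of these 7 lists 0 genes had p under 0.05 in either direction.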

How the data were processed

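RNA of cochleae was taken with Trizol and made into libraries with the TruSeq Stranded mRNA kit, per the labels' protocols. The deposited files hold FPKM, 1 value per Ensembl gene and library, which the authors made with Trimmomatic, HISAT2, Cufflinks and HTSeq on the build mm10, per the submitters' processing notes. The sources used here give no versions, annotation, counting strand or filters, so genes sharing exon bases are uncertain. Of the genes given in the text, those above 10% were Bmp5, Epyc, Ceacam16, Atp2a1, Adora1, H2-Q4, Spp1, Dbp, Mpo and Alas2. Multiplied by exon length (GENCODE M21) and 1 factor a library, FPKM came out whole within 0.01 fragments in all libraries for 31898 genes (92.4%), and a symbol was found for 34459.

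The test was limma 3.58.1 (R 4.3.3) on log2(FPKM + 1) as deposited, with 3 group means over 12 libraries, empirical Bayes with a variance trend, the contrast GTE minus coffee and Benjamini-Hochberg adjustment over 15388 genes (threshold 0.05, two-sided); it was tested on simulated data. Named were the 12 smallest p-values a direction (2 FPKM or more in the group with the higher mean, no clone or predicted symbol), up to 4 genes with the smallest p of each list, and genes fixed for their role. The members and the 55 lists (875 genes, 802 tested, 1 not matched) were chosen with earlier results of these data known. Lists have counts and medians, no test, and some lists share genes. Alternatives changed the pseudocount, filter, scaling, variance model, weights, block, covariate and libraries, or used voom on recovered fragments.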

Additional observations from a re-analysis of the deposited data

Results flagged for a closer look

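In a group of 4 libraries, 1 library was set apart from the other 3 by more than Dixon's 95% limit in 22 of 382 groups looked at, over the genes and list means given in the text. Chance alone flags about 1 in 20 groups, so the number is near that, and no cause was tested.

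GTE 1 was the library set apart in 10 of these. It was low for Kcne1 (15.4 FPKM), Slc45a2 (11.8 FPKM), Col9a3 (11.4 FPKM), Bmp4 (9.09 FPKM), Coch (1442 FPKM) and Gjb2 (207.5 FPKM). Its mean log2(FPKM + 1) was low for the marginal and outer sulcus list (3.21), the ligament list (5.66) and the BMP and TGF-beta list (3.14), and high for the immediate early list (3.74). GTE 1 also had the highest mean of the primary granule list, 6.57.

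Coffee 3 was high for Asb2 (4.63 FPKM), Gm525 (298.6 FPKM), Emcn (11.4 FPKM) and the ligament list (5.98), and it was the library rich in muscle genes. Coffee 1 was high for the T cell gene Trbc1 (5.1 FPKM) and low for the brown fat gene Ucp1 (2.02 FPKM). Coffee 4 was low for Cirbp (20.4 FPKM) and Dbp (4.81 FPKM).

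GTE 2 was high for Bola1 (18.7 FPKM) and C1qb (92.3 FPKM). GTE 3 was high for Hspa8 (424.9 FPKM) and for the glucocorticoid list (4.78), where the other 3 GTE libraries stood at 4.72.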

How the results depend on the processing

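Sample weights called 521 genes (428 higher and 93 lower in GTE), with a weight of 0.208 for GTE 1 and 2.19 for coffee 4. Of the 521 genes 69 were without overlap, where 1.71% of all genes lay wholly above coffee and 0.793% wholly below. Leaving out 1 library called 0 to 1, the 1 being Ighv1-22 without coffee 2 (log2 difference -1.97; adjusted p = 0.0268 in limma, with a range up to 1 over its alternatives), a gene picked after its value was known. Every other alternative called 0. The count at unadjusted p under 0.05 was 4637 with sample weights, 2014 with no filter, 647 at a mean of at least 5 FPKM and 562 to 3185 leaving out 1 library, without GTE 2 the lowest and without GTE 1 the highest; it was 676 without GTE 4 and 647 without coffee 4. The cause was not tested, except that the filters change the number of genes tested, to 33477 with none and 9297 at that mean. Same-numbered GTE and coffee libraries had correlations of their deviations of 0.561, 0.104, -0.0206 and -0.335. Differently numbered ones ran from -0.584 to 0.544. Values of both signs cannot decide whether the numbers pair libraries. With the replicate block 0 genes passed and 1357 had p under 0.05.

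The differences of the genes given in the text kept their sign under all alternatives except these, none of which passed. With sample weights Serpinh1 was 0.00 and Otof 0.17. With the granule covariate Plk1 was 0.09, Top2a 0.25, Myo7a 0.03 and Elane 0.02, and without coffee 1, coffee 4 and GTE 1 Tubb3 was 0.02. Leaving out 1 library, Otof ran from -0.31 to 0.10, Myo7a from -0.06 to 0.02, Per1 from -0.33 to 0.04 and Tubb3 from -0.52 to 0.02. Genes near 1 FPKM rest on few fragments, and the floor of 3 fragments in 2000 bases, 0.0604 to 0.0731 FPKM over the 12 libraries, covers counting error only.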
